A study of Mus musculus with 17 samples.

Results

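Retinoic acid (RA) was given to wild-type (WT) R1/E mouse embryonic stem cells for 1 day, and the change from untreated cells is described here over the genes they expressed. The cells were represented by 5 of the 17 RNA-seq libraries of the study, taken by their labels of genotype and time point: WT cells at day 0, under self-renewal culture without RA (2 libraries), and WT cells at day 1 of RA (3 libraries). Both groups come from a single established line with intact *Usb1*, and the libraries of a group are independent biological replicates according to the study's methods. For the comparison of genotypes, 6 libraries of *Usb1* knockout cells were used, 3 at day 0 and 3 at day 1, all of the single line KO-1, so that line and knockout cannot be told apart. Untreated cells kept for the same day were not analysed here, and RA and a day of further culture cannot be told apart. The dose of RA, and whether leukemia inhibitory factor (LIF) was left in the medium, are not given in the sources used here.

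RA is made from vitamin A by dehydrogenases, is carried in the cell by binding proteins and is broken down by cytochromes of the CYP26 family. In the nucleus it binds the receptors RARα, RARβ and RARγ, which pair with RXR on RA response elements, mostly direct repeats of a short half-site, and turn bound genes on once the ligand is present. In embryonic stem cells RA is a classical inducer of differentiation, known for activating *Hox* genes, which pattern the body axis, and for ending the self-renewal state that LIF and STAT3 sustain.

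The elements themselves can be read in the promoters of 2 genes of the pathway. Promoters from RefSeq (GRCm38.p6, 250 bases before to 50 after the start site) were searched on both strands for half-sites with the letters AGGTCA, or with the variants AGTTCA or GGGTCA or else GGTTCA, repeated in the same direction with 5 bases (DR5) or 2 bases (DR2) between them. Among all 32851 windows, 32 (0.097%) held a DR5 and 88 (0.268%) a DR2. Of the genes called at day 1 (the test is given below), 3 of the 1390 called higher that had a window held a DR5, namely *Cyp26a1*, *Rarb* and *Blvrb*, against 5 of the 11337 genes tested with a window (0.044%). The 250 bases before the start site of *Rarb* (chr14:16575477-16575726, minus strand), the receptor gene, and of *Cyp26a1* (chr19:37697558-37697807, plus strand), the RA-degrading enzyme, are shown because both hold the repeat close to the start, with its first base at −53 in *Rarb* and −32 in *Cyp26a1*, and both genes rose. Capitals mark the half-sites, which read on the opposite strand in *Cyp26a1*.
Rarb: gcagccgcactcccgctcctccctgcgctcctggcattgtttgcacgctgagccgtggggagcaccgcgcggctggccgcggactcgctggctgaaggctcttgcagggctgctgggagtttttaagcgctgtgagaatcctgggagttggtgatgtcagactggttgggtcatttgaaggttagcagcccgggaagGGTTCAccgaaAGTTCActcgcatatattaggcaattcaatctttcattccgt
Cyp26a1: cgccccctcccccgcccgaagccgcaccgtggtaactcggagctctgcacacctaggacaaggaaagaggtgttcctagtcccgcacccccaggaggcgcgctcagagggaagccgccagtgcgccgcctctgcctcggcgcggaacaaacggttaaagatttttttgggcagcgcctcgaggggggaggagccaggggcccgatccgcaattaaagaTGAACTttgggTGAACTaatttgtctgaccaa
A DR2 was held by 4 genes called higher, *Ano1*, *Tinagl1*, *1810020O05Rik* and *Slc25a21*, and by 1 called lower, *Slc7a7*. Among the 11337 genes tested with a window, 16 (0.141%) held one, and 11 of these were not called. The share was 0.288% of the genes called higher and 0.25% of those called lower, against 0.311% of all genes with a window. The elements of *Tinagl1* (chr4:130175210-130175235, minus strand) and *Ano1* (chr7:144738626-144738651, minus strand) are shown with 6 bases on each side, as examples of the second spacing in called genes that held (as defined below). *Blvrb* and the genes with a DR2 were named after their values were seen.
Tinagl1: agcccaGGGTCActGGGTCAaggatg
Ano1: tgcaggTGACCCcgTGACCCccgggg
None of the 24 windows of 22 *Hox* genes held either repeat. A match is a description of these letters, not of binding, and a window without one says nothing about elements farther away.

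A gene was tested where 2 or more of the 5 libraries had 1 TPM or more, which 18555 genes met. Of these, 3035 (16.4%) were called at day 1 against day 0, by limma on log2(TPM + 1) with a Benjamini-Hochberg adjusted p under 0.05 and at least a 2-fold change. Higher at day 1 were 2205 (11.9%) and lower were 830 (4.47%). Protein-coding genes made up 13502 of the genes tested, of which 1651 were called higher and 473 lower. Over the genes tested, log2 fold changes had a median of 0.17. When quantile normalization removed this shift, 1250 genes were called higher and 1309 lower, and with libraries set to an equal median 1611 and 1150, so the excess of rises depends on the scaling. The groups did not overlap in 10958 genes (59.1%).

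WT replicate 1 at day 0 stood apart from the others. It had 239 genes of 1 read, against 1352 in replicate 2 and 2349 to 2437 in the libraries at day 1, at similar depths of 15630729 to 16686771 reads on genes over the 5 libraries. Of 8395 genes with 1 to 20 reads in replicate 2, 5518 (65.7%) were at 0 in replicate 1, whereas the reverse held for 497 of 2897 (17.2%). A value of 0 in that library therefore allows more than the 3 reads that counting error alone would allow, and genes at 0 there are described as listed at 0, without a fold. Of the 2205 genes called higher, 928 were listed at 0 in replicate 1, 301 in replicate 2 and 286 in both. For this reason, each count below is followed by the members that held, meaning that they were also called in the same direction after quantile normalization and without replicate 1. Over all genes tested, 1620 held (8.73%), 1030 higher (5.55%) and 590 lower (3.18%). Genes below 1 TPM in both libraries at day 0 passed the filter through day 1 alone. They numbered 1505, and 2299 of the called genes passed otherwise. In the lists below, 1 such gene each was among the RA receptors and cofactors, Nodal, BMP, trophoblast, and epithelial and mesenchymal genes. The *Rhox*, Polycomb, cell cycle, p53 and *Ifitm* lists also had 1 each.

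The cells at both days carried the markers of embryonic stem cells. The 8 markers of this cell type (*Pou5f1*, *Sox2*, *Nanog*, *Esrrb*, *Zfp42*, *Dppa5a*, *Utf1* and *Sall4*) summed to 10336 and 10469 TPM at day 0 and to 8975, 9487 and 9398 TPM at day 1, and 3 of them were called lower. The sums hide opposite changes. *Dppa5a*, the largest part of the sum at both days, was higher at day 1 (log2 fold change 0.61). Each of the other markers was lower, with log2 fold changes between −2.11 and −0.20. Of 9 fibroblast markers, as feeder cells would carry, 5 were listed at 0 in all 5 libraries (*Acta2*, *Dcn*, *Lum*, *S100a4* and *Postn*), and the 9 summed to 4.79 and 6.41 TPM at day 0 and to between 6.69 and 8.28 TPM at day 1. Of the 2 tested, *Col1a1* was called higher and held. *Usb1*, the gene targeted in the knockout line, was at 39.95 and 37.1 TPM before RA and 56.9, 48.6 and 51.9 TPM after it (log2 fold change 0.43, adjusted p = 0.00917, limma), a difference short of 2-fold.

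Genes of the retinoid pathway itself were among those called. Of 9 members tested in the list of RA synthesis and uptake, 4 were called higher and 4 held, with none lower and a median log2 fold change of 0.85, against 0.17 over all genes. That median is the value of *Aldh1a2*, which was not called and was at 0 in replicate 1 at day 0. Without replicate 1 the median was 0.46, against 0.11 over all genes. After quantile normalization it was 0.34, against 0.008. Of the 4, *Stra6* and *Lrat* passed the filter through day 1 alone, which leaves 2. *Dhrs3*, which reduces retinaldehyde back to retinol and so limits RA formation, was at 2.72 and 2.16 TPM before RA and 72.6, 75.6 and 72.2 TPM after it (log2 fold change 4.44, SE 0.13, adjusted p = 8.08e-12, limma). It rose, with each library at day 1 far above both at day 0. *Stra6*, the membrane receptor for retinol uptake, was listed at 0 in both libraries at day 0 and was at 16.7, 14.3 and 13.8 TPM after RA (adjusted p = 1.14e-09, limma). *Lrat*, which esterifies retinol for storage, was also listed at 0 at day 0 and reached 2.75, 2.62 and 3.38 TPM after RA (adjusted p = 1.84e-06, limma). The enzymes that form RA did not pass the test. *Aldh1a2*, which makes RA from retinaldehyde, was at 0 and 1.9 TPM before RA and 2.04, 1.88 and 2.33 TPM after it, and *Rdh10*, which makes retinaldehyde from retinol, was at 7.85 and 5.32 TPM before RA and 7.98, 5.51 and 7.68 TPM after it, with overlapping groups in both.

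Among 6 genes of RA binding and degradation, 4 were called higher and held (median log2 fold change 2.51). *Cyp26b1* passed the filter through day 1 alone, and 3 of those that passed otherwise were called. The 3 hydroxylases that clear RA rose together. *Cyp26a1*, whose promoter with its DR5 is shown above, was at 3.66 and 1.78 TPM before RA and 104, 118 and 112 TPM after it (log2 fold change 4.96, SE 0.22, adjusted p = 4.71e-10, limma). *Cyp26c1* was at 1.32 and 0.775 TPM before RA and 15.5, 14.2 and 15.8 TPM after it (log2 fold change 2.99, SE 0.21, adjusted p = 6.29e-08, limma). *Cyp26b1*, the lowest of the 3 at day 1, was at 0 and 0.548 TPM before RA and 4.23, 4.13 and 3.87 TPM after it (adjusted p = 2.38e-05, limma). In each, all libraries at day 1 were the higher. *Crabp2*, which hands RA to its receptors, was at 5.86 and 2.73 TPM before RA and 71.2, 61 and 65.5 TPM after it (log2 fold change 3.72, SE 0.26, adjusted p = 4.87e-08, limma). Its relative *Crabp1* was at 45.7 and 24.2 TPM before RA and 30.4, 32.6 and 29.9 TPM after it and was not called. Nor was *Fabp5*, the other carrier, at 7.75 and 10.7 TPM before RA and 8.62, 8.33 and 8.83 TPM after it.

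Only *Rarb* of the RA receptors tested was called, and it passed the filter through day 1 alone. Of the receptors that passed otherwise, none was called. *Rarb* was at 0.517 and 0.0429 TPM before RA and 7.6, 6.78 and 6.65 TPM after it (log2 fold change 2.67, SE 0.19, adjusted p = 6.77e-08, limma), and at day 1 it still had far lower TPM than its relatives. *Rara* was at 52.9 and 69.6 TPM before RA and 74.9, 75.3 and 74.2 TPM after it (log2 fold change 0.30, SE 0.09, adjusted p = 0.0131, limma), where the libraries at day 1 were the higher, and *Rarg* was at 148 and 175 TPM before RA and 132, 129 and 138 TPM after it (log2 fold change −0.27, SE 0.08, adjusted p = 0.00921, limma), where they were the lower. Both changes were below 2-fold. *Nrip1*, a corepressor that binds liganded nuclear receptors, rose from 4.86 and 5.87 TPM to 34.9, 25.9 and 30.3 TPM after RA (log2 fold change 2.30, SE 0.19, adjusted p = 2.65e-07, limma). Among the cofactors and RXR genes, *Rxra*, *Rxrb*, *Ncoa3* and *Ncor1* had log2 fold changes between −0.19 and 0.13, and none of these was called. The plot of retinoid pathway genes gives these values by library.

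**Figure D1:**
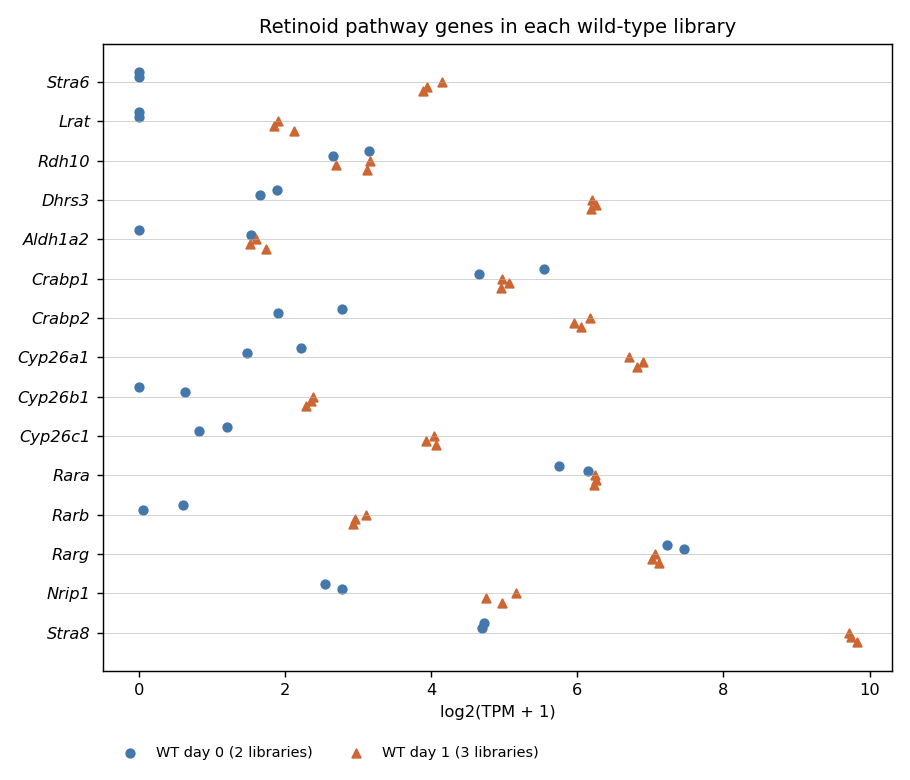
TPM of 15 genes of the retinoid pathway, drawn as log2(TPM + 1), in each WT library at day 0 (circles) and day 1 (triangles). *Cyp26a1*, *Dhrs3* and *Stra8* are far higher at day 1, while *Rara*, *Rarg*, *Rdh10* and *Crabp1* lie close together at both days.

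Of 18 RA target genes tested, 17 were called higher and held, with a median log2 fold change of 3.31. The list was drawn up with earlier results of these data known, so its count is a description. Moreover, 7 of the 18 passed the filter through day 1 alone, being below 1 TPM in both libraries at day 0, which leaves 11, of which 10 were called. The highest level belonged to *Stra8*, a gene named for its induction by RA and needed to enter meiosis, at 25.4 and 25.1 TPM before RA and 841, 861 and 904 TPM after it (log2 fold change 5.05, SE 0.08, adjusted p = 1.06e-14, limma). *Foxa1*, a pioneer factor of endoderm, was at 0.881 and 0.0679 TPM before RA and 10.5, 12 and 10.9 TPM after it (log2 fold change 3.10, SE 0.20, adjusted p = 2.13e-08, limma). Both had each library at day 1 well above both at day 0. The exception in the list was *Gbx2*, a homeobox gene that also belongs to the naive pluripotency circuit, at 113 and 106 TPM before RA and 63.2, 69.5 and 62.7 TPM after it (log2 fold change −0.74, SE 0.18, adjusted p = 0.00352, limma), where the libraries at day 1 were the lower.

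*Hox* genes of the A and B clusters made up most of the largest rises. Of 39 *Hox* genes in the table, 24 were tested, 21 were called higher and 18 held. The other 15 did not reach the filter, with no value above 2.84 TPM. Since 18 of the 24 were below 1 TPM in both libraries at day 0, they passed the filter through day 1 alone, and their count is no measure of how widely the family changed. Among the 6 that passed otherwise, 4 were called. The fitted median of the 24 was 2.88, and 2.69 with the 13 genes listed at 0 in both libraries at day 0 set to 3 reads there.

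Within the HoxA cluster, *Hoxa2* to *Hoxa7* and *Hoxa10* were among the genes called, and *Hoxa5* had the highest level of these at day 1. *Hoxa5* (ENSMUSG00000038253, chromosome 6, 52201754 to 52204587), listed at 0 at day 0, was at 100.5, 108 and 112 TPM after RA, *Hoxa4* at 60.4, 59.5 and 56.9 TPM after RA and *Hoxa3* at 36.9, 35.6 and 36 TPM after RA. *Hoxa2* was listed at 0 and then at 12.5, 12.3 and 15.3 TPM after RA. The levels fell off beyond the middle of the cluster. *Hoxa6* was at 9.55, 2.67 and 6.05 TPM after RA, uneven among the libraries, and *Hoxa7* was at 13.9, 11.2 and 14.9 TPM after RA. *Hoxa9* was at 0.563 and 0 TPM before RA and 0.906, 1.37 and 1.54 TPM after it and was not called, and *Hoxa10*, at 1.6 and 0 TPM before RA and 2.35, 3.12 and 3.1 TPM after it, was called but did not hold.

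All 10 genes of the HoxB cluster were tested, called higher and held. *Hoxb4* was highest at day 1, at 44.7, 41 and 41.1 TPM after RA, and was listed at 0 in both libraries at day 0. *Hoxb9* differed from its neighbours in being expressed at day 0 already, at 6.02 and 5 TPM before RA and 33.5, 30.7 and 32.3 TPM after it (log2 fold change 2.35, SE 0.11, adjusted p = 1.09e-09, limma). *Hoxb1*, which marks the hindbrain segment r4 in the embryo, was listed at 0 and then at 18.6, 13.8 and 14.8 TPM after RA. *Hoxb13*, the far end of the cluster, was at 0 and 0.307 TPM before RA and 4.88, 7.03 and 6.19 TPM after it (adjusted p = 3.99e-07, limma). Few genes of the other clusters could be tested. *Hoxc4* was listed at 0 and then at 7.02, 5.87 and 7.38 TPM after RA, *Hoxc5* and *Hoxd1* were called and did not hold, and *Hoxc13*, at 2.81 and 3.67 TPM before RA and 2.59, 0.949 and 1.16 TPM after it, and *Hoxd13*, at 0.759 and 1.64 TPM before RA and 2.3, 2.22 and 2.13 TPM after it, were not called. Among the HoxC genes 6 of 9, and among the HoxD genes 7 of 9, were not tested.

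**Figure D2:**
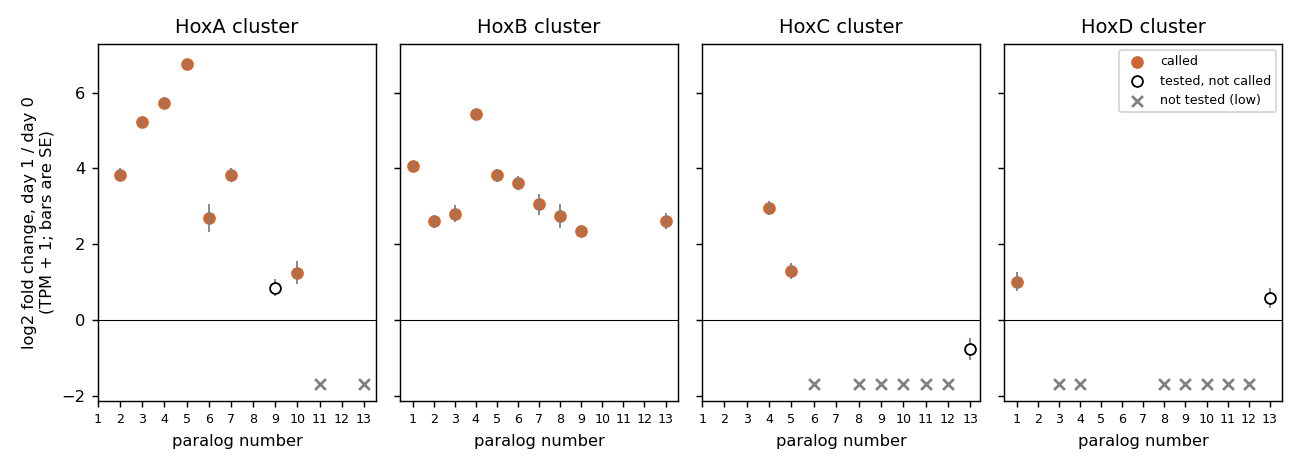
Log2 fold change of WT day 1 against WT day 0 on the TPM + 1 scale (y axis, bars are SE) by paralog number (x axis) for *Hox* genes of the 4 clusters. Filled points were called, open points were not, and crosses drawn at a fixed height mark genes not tested; for the 13 genes listed at 0 in both libraries at day 0 the point is a fitted value and no bound. *Hoxa2* to *Hoxa7* and all HoxB genes lie above 2.

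Noncoding RNAs of the clusters were called as well. Of 6 tested, 6 were called higher and 5 held, but 4 of them passed the filter through day 1 alone, which leaves 2. *Halr1* was already expressed at day 0, at 140.0 and 128 TPM, and was at 288, 302 and 319 TPM after RA (log2 fold change 1.17, SE 0.09, adjusted p = 2.24e-07, limma). Whether the libraries kept strand is not given in the sources used here, so where such a transcript overlaps a coding gene (*Hoxaas3* with *Hoxa5* and *Hoxa6*, *Hoxb5os* with *Hoxb5*) their reads cannot be told apart, and *Hoxa3* spans *Hoxa4* and *Hoxa5* in the annotation.

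The partners of HOX proteins and the regulators above them changed too. Of 12 *Cdx* and TALE homeobox genes tested, 8 were called higher, 6 held and none was lower (median log2 fold change 1.71). Of the 12, 3 passed the filter through day 1 alone, and 5 of those that passed otherwise were called. *Cdx1*, a direct RA target that sets *Hox* expression, was at 3.47 and 7.48 TPM before RA and 27.8, 30.2 and 35.2 TPM after it (log2 fold change 2.37, SE 0.21, adjusted p = 7.29e-07, limma). *Meis2* was at 0.0695 and 0.394 TPM before RA and 10.4, 9.36 and 10.04 TPM after it (log2 fold change 3.16, SE 0.15, adjusted p = 8.57e-10, limma). *Meis1*, its relative, was at 0 and 0.536 TPM before RA and 4.63, 3.39 and 3.74 TPM after it (adjusted p = 1.51e-06, limma). Both *Meis* genes were below 1 TPM in each library at day 0. *Pbx2*, which was expressed before RA, was at 33.6 and 34 TPM before RA and 129, 121 and 129 TPM after it (log2 fold change 1.87, SE 0.05, adjusted p = 6.91e-12, limma), a rise with little spread between libraries. *Tgif1*, a TALE repressor that can act against RA signaling, was at 87.7 and 94.6 TPM before RA and 69.1, 65.5 and 69.1 TPM after it (log2 fold change −0.42, SE 0.05, adjusted p = 1.76e-05, limma), lower in each library at day 1 but short of 2-fold.

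Pluripotency genes fell unevenly. Of 14 naive pluripotency genes tested, 8 were called lower, all of which held, and none was higher, with a median log2 fold change of −1.62. *Zfp42* (Rex1), a widely used marker of the naive state, was at 1285 and 1238 TPM before RA and 296, 296 and 280.1 TPM after it (log2 fold change −2.11, SE 0.07, adjusted p = 1.95e-11, limma). *Esrrb*, an orphan nuclear receptor that sustains self-renewal, was at 430.0 and 449.8 TPM before RA and 117, 110.1 and 109 TPM after it (log2 fold change −1.97, SE 0.10, adjusted p = 2.59e-09, limma). *Klf4*, a Krüppel-like factor, was at 279 and 324 TPM before RA and 62.8, 58.7 and 64 TPM after it (log2 fold change −2.27, SE 0.08, adjusted p = 8.02e-11, limma). In these genes the 3 libraries at day 1 were close to each other and far below either library at day 0. The other called members were *Tcl1*, *Klf5*, *Nr0b1*, *Tfcp2l1* and *Prdm14*, with log2 fold changes between −3.20 and −1.58.

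Other members of the same circuit stayed within 2-fold. *Nanog* was at 803 and 836 TPM before RA and 689.9, 715 and 734 TPM after it (log2 fold change −0.20, SE 0.08, adjusted p = 0.0414, limma). *Klf2* was at 470.3 and 458 TPM before RA and 234, 247 and 240.3 TPM after it (log2 fold change −0.95, SE 0.10, adjusted p = 3.19e-06, limma). Both were lower at day 1, *Klf2* close to the 2-fold limit. *Tbx3*, which is grouped with the naive factors, differed in sign, at 169.6 and 173 TPM before RA and 337, 297 and 326 TPM after it (log2 fold change 0.89, SE 0.09, adjusted p = 1.97e-06, limma), every library at day 1 above both at day 0. Among 12 core pluripotency genes, 2 were called lower and held. *Pou5f1* (Oct4) was at 1393 and 1371 TPM before RA and 974, 956 and 983 TPM after it (log2 fold change −0.51, SE 0.07, adjusted p = 6.91e-05, limma). *Sox2* was at 873 and 933 TPM before RA and 752, 699 and 752 TPM after it (log2 fold change −0.30, SE 0.08, adjusted p = 0.00921, limma), so that the 2 central factors of the state were still abundant at day 1. The called members were *Tdgf1*, a coreceptor of Nodal, at 762 and 785 TPM before RA and 120.3, 107 and 106 TPM after it, and *Utf1*, a chromatin factor of undifferentiated cells, at 1512 and 1645 TPM before RA and 491, 528 and 490.0 TPM after it. *Dppa5a* was at 3825 and 3775 TPM before RA and 5479, 6022 and 5877 TPM after it (log2 fold change 0.61), with the libraries at day 1 the higher.

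Genes of the formative state, which epiblast cells reach after the naive one, moved both ways. Of 15 tested, 5 were called higher and 2 lower, and all 7 held. The steepest fall was that of *Foxd3*, a forkhead repressor needed by pluripotent cells, at 124 and 144 TPM before RA and 4.73, 4.93 and 5.88 TPM after it (log2 fold change −4.45, SE 0.19, adjusted p = 4.71e-10, limma). *Etv4*, an ETS factor downstream of ERK, was at 268 and 276 TPM before RA and 49.5, 54.4 and 53 TPM after it (log2 fold change −2.36, SE 0.14, adjusted p = 7.74e-09, limma). *Sox4*, *Zic2*, *Dnmt3a*, *Zic5* and *Sox11* rose, with log2 fold changes between 1.64 and 2.52. *Otx2*, the leading factor of this state, was at 6.1 and 3.64 TPM before RA and 6.14, 5.18 and 5.74 TPM after it and was not called, and neither was *Pou3f1*, at 6.63 and 13.9 TPM before RA and 7.48, 7.23 and 7.21 TPM after it. *Fgf5*, the usual marker of the state, was not tested.

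Target genes of LIF and STAT3 signaling fell together. Of 15 members of this list tested, 10 were called lower, all held, and none was higher (median log2 fold change −1.45). *Socs3*, the feedback inhibitor that STAT3 induces, was at 231 and 249.5 TPM before RA and 22.7, 22.1 and 21.9 TPM after it (log2 fold change −3.38, SE 0.10, adjusted p = 1.56e-11, limma). *Junb* was at 109 and 140.2 TPM before RA and 18.8, 23.7 and 21.3 TPM after it (log2 fold change −2.49, SE 0.13, adjusted p = 2.43e-09, limma). *Bcl3*, a coactivator of NF-κB, was at 127 and 154 TPM before RA and 36.5, 34.6 and 31.9 TPM after it (log2 fold change −2.00, SE 0.10, adjusted p = 1.85e-09, limma). Of the pathway's own components, *Lifr* and *Stat3* fell. *Lifr*, the receptor subunit for LIF, was at 71.4 and 69.2 TPM before RA and 26.3, 22.1 and 22.2 TPM after it (log2 fold change −1.54, SE 0.13, adjusted p = 4.15e-07, limma). *Stat3* was at 55.8 and 62.3 TPM before RA and 26, 23.4 and 24.6 TPM after it (log2 fold change −1.23, SE 0.09, adjusted p = 7.74e-08, limma). *Il6st* (gp130), the shared subunit, was at 46.7 and 46.9 TPM before RA and 34.1, 27.1 and 25.7 TPM after it (log2 fold change −0.68, SE 0.15, adjusted p = 0.00173, limma). *Jak1*, the kinase, was at 30.4 and 29 TPM before RA and 44.8, 42.8 and 45.5 TPM after it (log2 fold change 0.56, SE 0.08, adjusted p = 4.02e-05, limma). Neither was called, and *Jak1* was the higher at day 1. *Klf4* and *Tfcp2l1* are members of both this list and the naive one.

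The *Myc* genes, which LIF also sustains, split by paralog. *Myc* was at 85.5 and 93.2 TPM before RA and 22.4, 19.7 and 21 TPM after it (log2 fold change −2.04, SE 0.09, adjusted p = 3.33e-10, limma). *Mycn* was at 89.5 and 116 TPM before RA and 21.6, 20.04 and 20.5 TPM after it (log2 fold change −2.24, SE 0.11, adjusted p = 9.32e-10, limma). *Mycl* went the other way, at 2.59 and 5.65 TPM before RA and 14.5, 16.7 and 17.1 TPM after it (log2 fold change 1.80, SE 0.21, adjusted p = 7.58e-06, limma). Among 27 cell cycle regulators tested, 5 were called higher (18.5%) and 3 lower (11.1%), and 4 and 3 held. Over all genes tested the shares were 11.9% and 4.47%. This list counts *Mycn* again, as its lowest log2 fold change. Inhibitors of cyclin-dependent kinases were among the rises, with *Cdkn1c* (p57) at 92.5 and 116 TPM before RA and 326, 334 and 345 TPM after it (log2 fold change 1.68, SE 0.11, adjusted p = 4.44e-08, limma). *Cdkn2d* was at 20.2 and 24 TPM before RA and 50.7, 59 and 54.9 TPM after it (log2 fold change 1.28, SE 0.13, adjusted p = 3.62e-06, limma). *Cdk6* was at 10.5 and 17.4 TPM before RA and 5.95, 5.65 and 5.68 TPM after it (log2 fold change −1.11, SE 0.18, adjusted p = 0.00016, limma). Cyclins and *Cdk1*, *Cdk2* and *Cdk4* were not called.

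**Figure D3:**
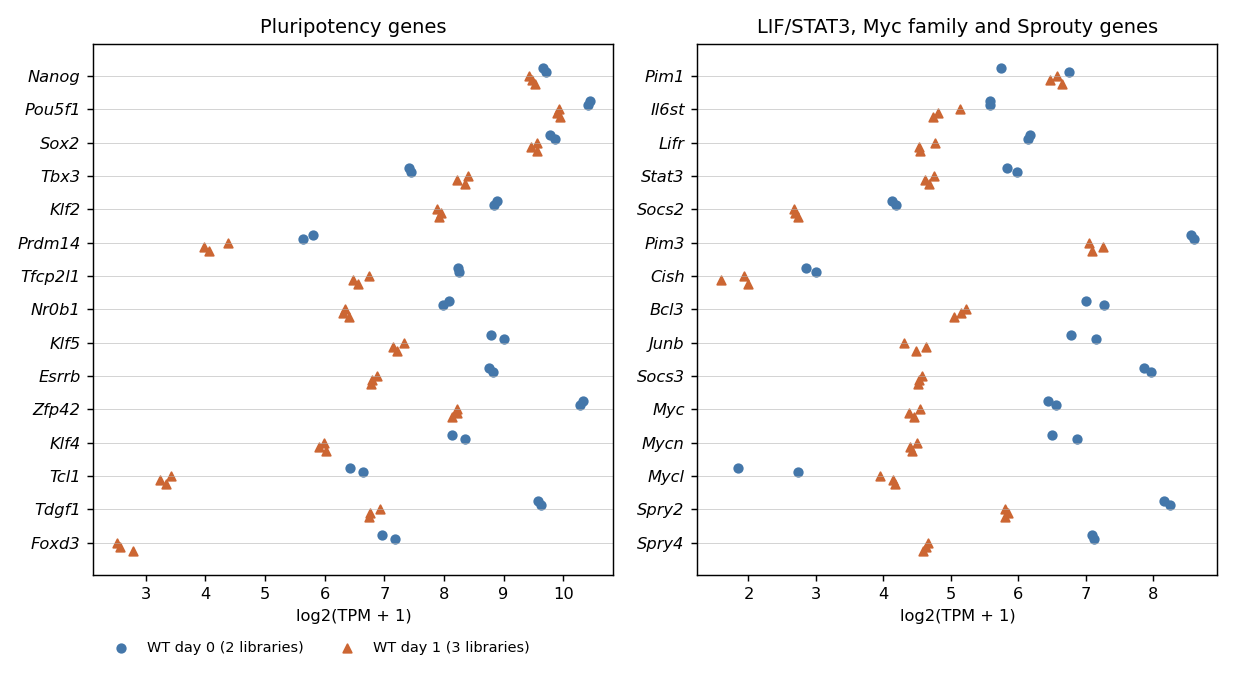
TPM of 15 pluripotency genes (left) and of 15 LIF/STAT3, Myc family and Sprouty genes (right), drawn as log2(TPM + 1), in each WT library at day 0 (circles) and day 1 (triangles). *Nanog*, *Pou5f1* and *Sox2* move little, while *Tcl1*, *Foxd3* and *Socs3* are far lower at day 1 and *Tbx3* and *Mycl* are higher.

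FGF signaling genes moved both ways. Of 22 tested, 4 were called higher and 7 lower, with 3 and 6 that held and a median of −0.66. *Spry2*, a feedback inhibitor of ERK signaling, was at 283 and 302 TPM before RA and 54.6, 56.6 and 54.5 TPM after it (log2 fold change −2.38, SE 0.05, adjusted p = 4.59e-13, limma). Its paralog *Spry4* was at 135 and 138 TPM before RA and 24.3, 23.8 and 23 TPM after it (log2 fold change −2.48, SE 0.14, adjusted p = 4.12e-09, limma). *Fgf17*, a ligand, was at 56.4 and 49.5 TPM before RA and 2.08, 3.52 and 2.87 TPM after it (log2 fold change −3.83, SE 0.26, adjusted p = 4.18e-08, limma). All 3 genes were far lower in each library at day 1. In contrast, *Fgf4*, the main ligand of embryonic stem cells, was at 336 and 310.3 TPM before RA and 245, 237 and 234 TPM after it (log2 fold change −0.43, SE 0.13, adjusted p = 0.0158, limma) and was not called. Of the receptors, *Fgfr1*, *Fgfr2* and *Fgfr4* rose. *Fgfr1* was at 60.6 and 61.8 TPM before RA and 174, 160.1 and 153 TPM after it (log2 fold change 1.39, SE 0.09, adjusted p = 1.94e-08, limma). *Fgfr2* was at 1.66 and 0.896 TPM before RA and 15.2, 11 and 12.2 TPM after it (log2 fold change 2.61, SE 0.17, adjusted p = 2.14e-08, limma). Both receptors were higher in every library at day 1. *Fgfr4* was at 1.95 and 4.91 TPM before RA and 10.8, 11.4 and 10.4 TPM after it (adjusted p = 5.56e-05, limma). *Fgfr3* was at 5.06 and 6.28 TPM before RA and 3.93, 3.44 and 4.31 TPM after it (log2 fold change −0.44, SE 0.15, adjusted p = 0.0304, limma), lower in each library at day 1 and not called.

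The ligands and inhibitors of Nodal signaling diverged. Of 19 members tested, 5 were called higher and 3 lower, with 4 and 3 that held. *Lefty1*, a secreted inhibitor of Nodal, was at 241 and 263 TPM before RA and 705, 709 and 599 TPM after it (log2 fold change 1.41, SE 0.18, adjusted p = 2.37e-05, limma), while its neighbour and paralog *Lefty2* was at 153 and 199 TPM before RA and 74.7, 71.3 and 59.4 TPM after it (log2 fold change −1.34, SE 0.15, adjusted p = 5.86e-06, limma). The paralogs moved in opposite directions, and their groups did not overlap in either. *Inhbb*, which encodes the activin B subunit, was at 562 and 544 TPM before RA and 118, 118 and 112 TPM after it (log2 fold change −2.24). *Nodal* itself was at 156 and 142 TPM before RA and 202, 211 and 189 TPM after it (log2 fold change 0.43, SE 0.12, adjusted p = 0.00787, limma), a change below 2-fold.

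Of 18 genes of the BMP pathway tested, 7 were called higher and 2 lower, with 6 and 2 that held. The classical target genes were the risers. *Id1*, *Id2* and *Id3* encode inhibitors of basic helix-loop-helix factors. *Id2* was at 27.7 and 36.1 TPM before RA and 265, 265 and 294 TPM after it (log2 fold change 3.08, SE 0.13, adjusted p = 3.33e-10, limma). *Id1* was at 292 and 379.8 TPM before RA and 785, 825 and 866 TPM after it (log2 fold change 1.305, SE 0.11, adjusted p = 3.3e-07, limma). *Id3* was at 61.6 and 47.6 TPM before RA and 154, 162 and 172 TPM after it (log2 fold change 1.57, SE 0.10, adjusted p = 2.42e-08, limma). All 3 *Id* genes were higher in every library at day 1. *Msx1* and *Msx2*, homeobox genes, rose from below 2 TPM to between 18 and 30 TPM, with log2 fold changes of 3.49 and 3.66. *Smad6*, the inhibitory SMAD, was at 4.96 and 12.1 TPM before RA and 41.5, 34.6 and 39.6 TPM after it (log2 fold change 2.16, SE 0.22, adjusted p = 2.98e-06, limma). The ligand went the other way, *Bmp4* being at 118 and 124 TPM before RA and 29.3, 30.7 and 29.4 TPM after it (log2 fold change −1.99, SE 0.09, adjusted p = 8.01e-10, limma).

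Of 32 Wnt pathway genes tested, 10 were called higher and 5 lower, with 7 and 4 that held. Of the 32, 4 passed the filter through day 1 alone, and 11 of those that passed otherwise were called. The frizzled receptors did not move as one. *Fzd2* was at 3.83 and 7.89 TPM before RA and 51.9, 45.9 and 47.9 TPM after it (log2 fold change 2.92, SE 0.18, adjusted p = 1.48e-08, limma). *Fzd7* was at 131 and 129.8 TPM before RA and 418, 378 and 358 TPM after it (log2 fold change 1.55, SE 0.12, adjusted p = 1.7e-07, limma). *Fzd5* was at 233 and 241 TPM before RA and 64.1, 56.1 and 54.5 TPM after it (log2 fold change −2.01, SE 0.12, adjusted p = 1.08e-08, limma). *Fzd2* and *Fzd7* were higher and *Fzd5* lower in every library at day 1. *Notum*, a secreted Wnt inactivator, was at 33 and 36.8 TPM before RA and 7.12, 6.97 and 7.5 TPM after it (log2 fold change −2.13, SE 0.12, adjusted p = 7.74e-09, limma). *Wnt6* was at 23.4 and 38.2 TPM before RA and 5.11, 5.62 and 3.12 TPM after it (log2 fold change −2.49, SE 0.22, adjusted p = 6.27e-07, limma). The target gene *Axin2* was at 5.59 and 2.01 TPM before RA and 2.19, 2.16 and 2.12 TPM after it and was not called.

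Lineage markers gave a partial picture at day 1. Among 18 primitive endoderm markers tested, 8 were called higher and 1 lower, with 5 and 1 that held. Of the 18, 2 passed the filter through day 1 alone, and 7 of those that passed otherwise were called. *Gata6*, a transcription factor that opens this lineage, was at 1.09 and 1.13 TPM before RA and 30.1, 30.9 and 28.5 TPM after it (log2 fold change 3.87, SE 0.11, adjusted p = 9.33e-12, limma). *Gata4* was at 1.02 and 2.43 TPM before RA and 4.22, 4.84 and 5.3 TPM after it (log2 fold change 1.13, SE 0.28, adjusted p = 0.00475, limma), called without holding. The basement membrane genes made in quantity by such cells were not called higher. *Lama1* was at 134 and 144 TPM before RA and 89, 65.7 and 71.3 TPM after it, *Lamb1* at 47.2 and 46.6 TPM before RA and 50.2, 50.3 and 48.1 TPM after it and *Col4a1* at 72.8 and 71.1 TPM before RA and 150.0, 123 and 126 TPM after it, with log2 fold changes of −0.89, 0.08 and 0.87, and *Sox17* was not tested. The 13 markers fixed for the cell type summed to 25.6 and 38.9 TPM at day 0 and to 108, 107 and 112 TPM at day 1, 7 of 10 tested were called higher and *Afp* was listed at 0 in all 5 libraries. The part of such cells in the other results was not tested. In these bulk libraries, more cells of a type and more RNA per cell cannot be told apart.

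Of 30 neural markers, 12 were tested, 7 called higher (58.3%, against 11.9% over all genes tested) and 4 held. Of the 12, 3 passed the filter through day 1 alone, *Irx3* and *Pax6* among them. Of those that passed otherwise, 4 were called. *Irx3*, a homeobox gene of the neural plate, was at 0 and 0.736 TPM before RA and 22.8, 26.4 and 24 TPM after it (adjusted p = 1.51e-09, limma). *Sox1*, the early marker of neuroectoderm, was at 9.49 and 9.81 TPM before RA and 26.2, 26.1 and 24.9 TPM after it (log2 fold change 1.33, SE 0.12, adjusted p = 7.03e-07, limma). *Msi1* was at 8.77 and 10.6 TPM before RA and 40.7, 39.5 and 39.6 TPM after it (log2 fold change 1.95, SE 0.11, adjusted p = 8.26e-09, limma). These 3 genes were higher in every library at day 1. *Pax6* was at 0.304 and 0.502 TPM before RA and 2.18, 1.49 and 2.13 TPM after it, a low level at which the gene was called and did not hold. *Tubb3*, a neuronal tubulin, was at 109 and 90.9 TPM before RA and 59.5, 56 and 67 TPM after it (log2 fold change −0.70, SE 0.09, adjusted p = 3.3e-05, limma), lower at day 1 and within 2-fold. The 10 neural markers fixed for the cell type summed to 123 and 110 TPM at day 0 and to between 91.8 and 103 TPM at day 1, most of it from *Tubb3*.

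Of 22 mesoderm markers, 10 were tested and 2, *Twist1* and *Nkx2-5*, were called higher and held, both of which passed the filter through day 1 alone. *T* (brachyury), the pan-mesoderm factor, was at 3.17 and 0.293 TPM before RA and 1.42, 0.55 and 1.14 TPM after it and *Mixl1* at 0 and 1.28 TPM before RA and 1.15, 0.833 and 0.576 TPM after it, levels at which both groups overlap. Of 5 trophoblast markers tested, 3 were called higher and 1 held, *Gata3*, which was listed at 0 and then at 2.1, 1.76 and 2.44 TPM after RA. Of 16 epithelial and mesenchymal genes tested, 3 were called higher and 2 lower, with 1 and 1 that held. *Cdh1*, the epithelial cadherin, was at 398 and 365 TPM before RA and 440.5, 380.5 and 381 TPM after it (log2 fold change 0.07, SE 0.09, adjusted p = 0.563, limma). *Vim*, the mesenchymal filament, was at 239.7 and 241 TPM before RA and 165, 167 and 169 TPM after it (log2 fold change −0.52, SE 0.05, adjusted p = 2.99e-06, limma), lower at day 1 and not called. *Krt18* rose, at 11.9 and 10.1 TPM before RA and 29.4, 35.9 and 34.2 TPM after it (log2 fold change 1.51, SE 0.09, adjusted p = 1.96e-08, limma), while its partner *Krt8* was at 36.5 and 40.4 TPM before RA and 61.7, 57 and 67.3 TPM after it (log2 fold change 0.68, SE 0.08, adjusted p = 1.37e-05, limma) and missed the 2-fold limit. Of the 3 genes of 2-cell-like cells called among 4 tested, none held, and all 3 passed the filter through day 1 alone.

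Germline genes other than *Stra8* rose too. Of 22 tested, 10 were called higher (45.5%, against 11.9% over all genes tested) and 1 lower (4.55%, against 4.47%), with 8 and 1 that held. *Stra8* itself is counted among the 10, and also in the list of RA target genes. *Rec8*, the meiotic cohesin subunit, was at 15.1 and 20.5 TPM before RA and 100.1, 102 and 103 TPM after it (log2 fold change 2.46, SE 0.12, adjusted p = 1.36e-09, limma). *Ddx4*, the germ cell helicase, was at 18.2 and 17.8 TPM before RA and 41.6, 40.1 and 40.8 TPM after it (log2 fold change 1.14, SE 0.09, adjusted p = 1.97e-07, limma). *Dazl*, the RNA-binding protein of germ cells, was at 13 and 6.74 TPM before RA and 26.2, 26.5 and 25.2 TPM after it (log2 fold change 1.37, SE 0.21, adjusted p = 0.000132, limma). All 3 were expressed before RA. The synaptonemal genes *Sycp1*, at 20.9 and 20.3 TPM before RA and 15.7, 11.5 and 15.8 TPM after it, and *Sycp3*, at 4.47 and 4.47 TPM before RA and 11.3, 6.38 and 10.4 TPM after it, were not called, nor was *Dmc1*, the meiotic recombinase, at 13.5 and 13.9 TPM before RA and 15, 16.8 and 17.5 TPM after it. *Nanos3*, a germ cell survival factor, was at 17 and 27.1 TPM before RA and 6.9, 7.35 and 5.96 TPM after it (log2 fold change −1.54, SE 0.28, adjusted p = 0.000477, limma).

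Paralogs among the chromatin genes moved apart. Of 12 genes of the DNA methylation machinery, 2 were called higher and 3 lower, with 1 and 3 that held. *Dnmt3a*, a de novo methyltransferase, was at 7.89 and 10.1 TPM before RA and 41.2, 37.3 and 39.9 TPM after it (log2 fold change 2.02, SE 0.11, adjusted p = 2.52e-09, limma). *Dnmt3l*, the cofactor of these enzymes, was at 67.6 and 79.2 TPM before RA and 13.9, 13.9 and 16.4 TPM after it (log2 fold change −2.24, SE 0.12, adjusted p = 4.35e-09, limma). *Dnmt3b*, the other methyltransferase, was at 78.8 and 78.4 TPM before RA and 45.3, 39.3 and 43.5 TPM after it (log2 fold change −0.87, SE 0.11, adjusted p = 1.83e-05, limma). The paralogs *Dnmt3a* and *Dnmt3b* differed in sign, and of them the former was called. *Tet1*, which oxidizes methylcytosine, was at 221 and 236 TPM before RA and 56.6, 44.1 and 46.8 TPM after it (log2 fold change −2.20, SE 0.17, adjusted p = 1.85e-07, limma). Its paralog *Tet2* was at 90.4 and 100.7 TPM before RA and 41.9, 30.3 and 32.1 TPM after it (log2 fold change −1.45, SE 0.20, adjusted p = 4.2e-05, limma). *Tet3* was at 5.01 and 5.04 TPM before RA and 14.4, 10.6 and 12.7 TPM after it (adjusted p = 0.00017, limma), called higher without holding. The order of the *Tet* genes was the same at both days, with *Tet1* above *Tet2* above *Tet3*, and at day 1 the 3 lay closer together.

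Of 25 Polycomb subunits tested, 6 were called higher, 3 held (*Cbx8*, *Bmi1* and *Pcgf1*) and none was lower, around a median of −0.08. *Pcgf1* was at 22.5 and 23 TPM before RA and 61.7, 66.2 and 66 TPM after it (log2 fold change 1.47, SE 0.10, adjusted p = 3.57e-08, limma). *Bmi1* (Pcgf4) was at 3.58 and 6.25 TPM before RA and 18.9, 20.4 and 20.7 TPM after it (log2 fold change 1.86, SE 0.17, adjusted p = 1.01e-06, limma). The core subunits *Ezh2*, *Suz12* and *Rnf2* were not called, with log2 fold changes between −0.21 and −0.03. *Eed*, the remaining core subunit of the complex that methylates histone H3, was at 206 and 214 TPM before RA and 105, 112 and 109 TPM after it (log2 fold change −0.94, SE 0.06, adjusted p = 3.37e-08, limma), close to the limit.

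Imprinted genes of the *Dlk1* and *Meg3* locus moved in opposite directions. *Meg3*, a maternally expressed noncoding RNA, was at 41.6 and 53.2 TPM before RA and 13.1, 12.9 and 13.3 TPM after it (log2 fold change −1.77, SE 0.15, adjusted p = 5.65e-07, limma). *Rian* and *Mirg*, noncoding RNAs of the same allele, were at 48.7 and 44.5 TPM before RA and 14.9, 16.1 and 16.5 TPM after it (adjusted p = 6.09e-08, limma) and at 6.46 and 8.55 TPM before RA and 2.26, 1.89 and 2.51 TPM after it (adjusted p = 4.43e-06, limma). *Dlk1*, the paternally expressed coding gene of the same cluster, was at 3.74 and 4.71 TPM before RA and 44.7, 43.2 and 44.5 TPM after it (log2 fold change 3.12, SE 0.12, adjusted p = 1.05e-10, limma). Over 20 imprinted genes tested, 4 were called higher and 3 lower, with 3 and 3 that held.

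Metabolic lists were called below the share over all genes tested (16.4%). The shares were 11.8% for threonine and one-carbon metabolism, 15% for glycolysis and 4.55% for cholesterol synthesis. In threonine and one-carbon metabolism all calls were lower, a direction called in 4.47% of all genes tested. In glycolysis all were higher, a direction called in 11.9%. *Tdh* (chromosome 14, 63492347 to 63509092), the threonine dehydrogenase on which mouse embryonic stem cells rely, was at 442 and 426 TPM before RA and 10.7, 11.4 and 10.02 TPM after it (log2 fold change −5.22, SE 0.12, adjusted p = 8.34e-13, limma), the largest fall among the genes named. *Shmt1*, the cytosolic serine hydroxymethyltransferase, was at 192 and 157 TPM before RA and 67.5, 63 and 68.7 TPM after it (log2 fold change −1.38, SE 0.08, adjusted p = 1.53e-08, limma). The other 15 of 17 genes of threonine and one-carbon metabolism were not called, among them *Gldc*, at 54.2 and 58.3 TPM before RA and 47.7, 36 and 39.2 TPM after it, which acts in the next steps. Of 20 glycolysis genes 3 were called higher and 1 held, and of 22 cholesterol synthesis genes 1 was called lower and held. Among 78 ribosomal proteins 1 was called in each direction, and among 13 mitochondrially encoded proteins none was called.

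Stress and p53 genes were called in 14.3% and 11.1% of those tested, all higher, against 11.9% higher over all genes tested. Of 18 p53 targets tested, 2 were called higher and 1, *Sesn1*, held, and *Cdkn1a* (p21) was at 31 and 40.1 TPM before RA and 38.6, 37.4 and 38.7 TPM after it (log2 fold change 0.11, SE 0.09, adjusted p = 0.348, limma). Of 14 stress response genes, 2 were called higher and held. *Ddit4*, an inhibitor of mTORC1, was at 63.6 and 73.7 TPM before RA and 386, 338 and 369 TPM after it (log2 fold change 2.39, SE 0.15, adjusted p = 1.51e-08, limma). *Jun* was at 6.5 and 3.89 TPM before RA and 16.7, 21.5 and 19.06 TPM after it (log2 fold change 1.72, SE 0.17, adjusted p = 2.23e-06, limma). Of 7 *Ifitm* genes tested, 1 was called in each direction and the lower one held. This was *Ifitm1*, which was at 109 and 94.1 TPM before RA and 42.4, 42.1 and 42.5 TPM after it (log2 fold change −1.24, SE 0.15, adjusted p = 1.24e-05, limma). Of 5 *Rhox* genes tested, 2 were called higher and *Rhox10* held, listed at 0 and 0.888 TPM at day 0 and at 5.47, 6.12 and 6.06 TPM after RA. The plot of the lists sets these counts side by side.

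**Figure D4:**
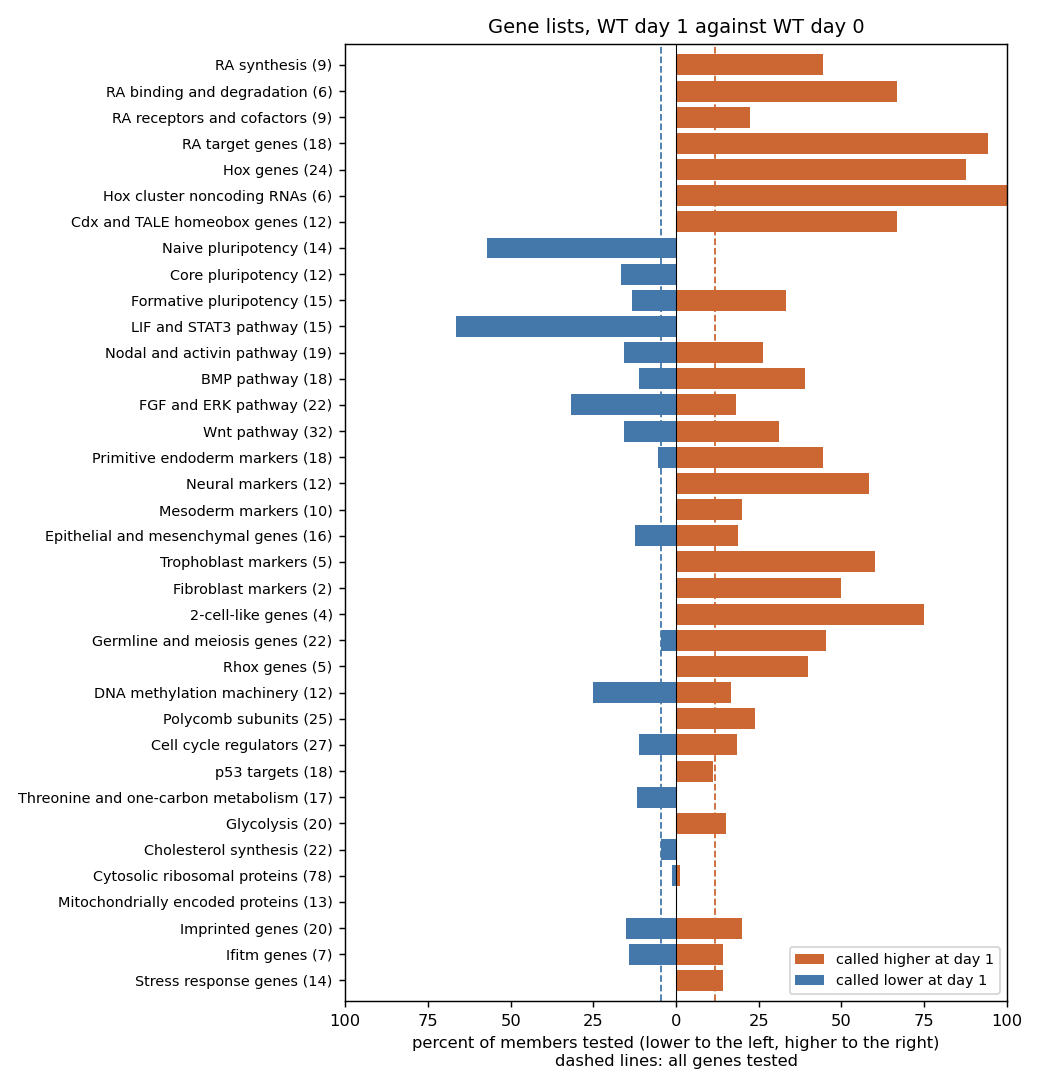
Percent of the members tested (x axis) that were called higher (right) or lower (left) at day 1 in WT cells, for each of 36 gene lists with the number tested in brackets. Dashed lines mark the percentages over all genes tested, 11.9 higher and 4.47 lower; the *Hox* cluster noncoding RNAs, RA targets and *Hox* genes reach farthest to the right, and the LIF and naive pluripotency lists farthest to the left.

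By size of change alone, the 12 largest rises among called protein-coding genes of at least 10 TPM included *Hoxa5*, *Zfp703*, *Hoxa4*, *Hoxb4*, *Hoxa3*, *Stra8*, *Cyp26a1*, *Olig3*, *Mrc2*, *Crygc* and *Slc35g2*. Outside the lists, *Zfp703*, a zinc finger repressor, was at 0 and 0.666 TPM before RA and 82.1, 78.5 and 89.3 TPM after it. *Olig3*, a helix-loop-helix factor of the dorsal neural tube, was listed at 0 and then at 27.7, 26.6 and 29.4 TPM after RA. *Mrc2*, an endocytic collagen receptor, was at 4.11 and 4.94 TPM before RA and 161, 132 and 136 TPM after it (log2 fold change 4.70, SE 0.13, adjusted p = 4.81e-12, limma). *Crygc*, a crystallin gene, was at 0 and 0.287 TPM before RA and 27.4, 29.99 and 27.7 TPM after it, and *Slc35g2* was at 0.395 and 0.142 TPM before RA and 27.4, 25.9 and 30.2 TPM after it (log2 fold change 4.51, SE 0.20, adjusted p = 5.3e-10, limma).

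The 12 largest falls by the same rule were *Tdh*, *Foxd3*, *Fgf17*, *Enox1*, *Nphs1*, *Chrna9*, *Socs3*, *Gjb5*, *Krt17*, *Tcl1*, *Kirrel2* and *Nkx6-3*. *Nphs1* and *Kirrel2*, which encode the related immunoglobulin proteins nephrin and filtrin, lie head to head on chromosome 7 with 624 bases between them. *Nphs1* was at 27.6 and 35.3 TPM before RA and 2.02, 1.48 and 1.73 TPM after it (log2 fold change −3.56, SE 0.18, adjusted p = 2.45e-09, limma). *Kirrel2* was at 28.6 and 23.8 TPM before RA and 2.06, 1.46 and 2.52 TPM after it (log2 fold change −3.18, SE 0.17, adjusted p = 3.92e-09, limma). Both neighbours were low in every library at day 1. *Nkx6-3*, a homeobox gene, was at 114 and 129 TPM before RA and 11.2, 12 and 15 TPM after it (log2 fold change −3.17, SE 0.18, adjusted p = 8.04e-09, limma). *Gjb5*, a connexin, was at 98.4 and 71.9 TPM before RA and 7.79, 8.14 and 7.17 TPM after it (log2 fold change −3.29, SE 0.14, adjusted p = 4.08e-10, limma). *Chrna9*, a nicotinic receptor subunit, was at 28.2 and 24.1 TPM before RA and 1.31, 1.33 and 1.67 TPM after it (log2 fold change −3.48, SE 0.17, adjusted p = 1.52e-09, limma). In each of these 3, the libraries at day 1 were close to one another. *Krt17* was at 58.3 and 62.3 TPM before RA and 5.67, 6.3 and 4.4 TPM after it (log2 fold change −3.26, SE 0.40, adjusted p = 1.58e-05, limma).

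Levels at day 3 differed among the early rises. Mean levels at day 3 in WT cells (± SD, n = 3) are given as levels, without a test. *Stra8* was at 300 ± 16.8 TPM, *Olig3* at 2.56 ± 0.88 TPM, *Cdx1* at 4.87 ± 0.733 TPM and *Neurog3* at 0.169 ± 0.193 TPM, each below the libraries at day 1. *Cyp26a1* was at 402 ± 49 TPM and *Rarb* at 25.2 ± 2.57 TPM, above them. *Nanog* was at 22.6 ± 2.16 TPM and *Pou5f1* at 66.6 ± 7.18 TPM, and *Lama1*, not called higher at day 1, was at 1121 ± 139.9 TPM.

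The same day of RA in *Usb1* knockout cells gives a measure of where the response of WT cells differed. The interaction term of the limma fit tested the difference of the responses. It was called in 205 (1.1%), of which 163 (0.878%) were more positive and 42 (0.226%) more negative in WT cells. The excess of positive differences depends on the scaling, with 87 and 85 genes after quantile normalization, and the calls depend on WT replicate 2 at day 0, without which replicate 1 stands alone and 1746 genes were called. Of 36 differences of named genes that were called, 6 were called under each alternative that tested them, those of *Inhbb*, *Nphs1*, *Rec8*, *Sertad4*, *Slc27a2* and *Tdh*.

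Among retinoid genes, *Cyp26a1* rose less in WT cells (log2 fold change 4.96) than in knockout cells (6.65), a difference of −1.69 (SE 0.29, adjusted p = 0.0078, limma). Its mean in knockout cells was 0.118 ± 0.204 TPM (SD, n = 3) at day 0 and 110.3 ± 5.13 TPM (SD, n = 3) at day 1, against the WT levels given above. With so low a level at day 0 in knockout cells, the size of this difference depends on the pseudocount. It was −3.995 with a pseudocount of 0.1. *Crabp2* differed the other way, at 3.72 in WT and 1.78 in knockout cells, a difference of 1.94 (SE 0.34, adjusted p = 0.00971, limma). *Stra8* and *Dhrs3* were not called as different, with differences of −0.09 (SE 0.10) and 0.24 (SE 0.17).

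The 5 largest positive differences among protein-coding genes of at least 10 TPM were those of *Sumo2*, *Neurog3*, *Sertad4*, *Crygc* and *Rasgrp3*. *Sertad4* was listed at 0 and 0.821 TPM at day 0 and was at 25.6, 22.8 and 25.8 TPM after RA in WT cells, against means of 1.67 ± 0.384 TPM (SD, n = 3) and 9.16 ± 0.887 TPM (SD, n = 3) in knockout cells. *Neurog3*, the endocrine proneural factor, was at 34.7, 33.5 and 41.7 TPM after RA in WT cells and at 7.52 ± 0.744 TPM (SD, n = 3) in knockout cells. *Sumo2* was at 35.3 and 30.4 TPM before RA and 204, 214 and 157 TPM after it in WT cells and at 242 ± 39.99 TPM (SD, n = 3) and 196 ± 55.3 TPM (SD, n = 3) in knockout cells, and has many processed copies in the genome with which it can share reads, so its value is uncertain. The 5 largest negative differences were those of *AC170998.1*, *Slc27a2*, *Cited4*, *Nphs1* and *Tcl1*. *Tcl1*, a coactivator of AKT, was at 85.3 and 98.4 TPM before RA and 9.77, 8.4 and 9.07 TPM after it in WT cells. In knockout cells its means were 181 ± 9.21 TPM (SD, n = 3) and 65 ± 6.19 TPM (SD, n = 3). *Slc27a2*, a fatty acid transporter, was at 18.2 and 16.3 TPM before RA and 1.58, 2.26 and 0.997 TPM after it in WT cells. In knockout cells its means were 5.33 ± 0.732 TPM (SD, n = 3) and 2.12 ± 0.162 TPM (SD, n = 3). The naive and LIF lists had 1 of 14 and 0 of 15 tested members with a called difference, and the *Hox* list had 3 of 24.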

How the data were processed

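RNA-seq was made from WT and *Usb1* knockout R1/E cells. The values used are TPM per gene, deposited by the authors, who derived them from gene length and the reads on each gene. HISAT2 2.1.0 and StringTie 1.3.6 are named in the submitters' processing notes. Of 54532 genes, 54495 identifiers matched the GENCODE M21 annotation (GRCm38), whose exon lengths gave back whole reads (tolerance 0.01). Values were taken as log2(TPM + 1) and tested with limma 3.58.1 (R 4.3.3) on the means of 6 groups over all 17 libraries, with a trended empirical Bayes variance, for the genes that 2 or more of the 5 WT libraries held at 1 TPM or more. Benjamini-Hochberg adjustment ran over all genes tested. Calls needed an adjusted p under 0.05 and a log2 fold change of at least 1. The test was also run on data simulated with a dispersion of 0.02. Of 200 genes changed by 2 on the log2 scale, 98.5% were recovered. Among 18143 genes, 9 unchanged genes were called. Genes of few reads were not scored apart, so these values give no error rate for them. The loss of low values in the WT library that stood apart was not scored either.

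Genes named are the 12 largest rises and falls among called protein-coding genes without overlap of groups and with a mean of at least 10 TPM in the higher group, members of the gene lists, the 5 largest differences between genotypes in each direction, and *Usb1*. The gene lists and this choice of comparison were made with earlier results of these data known. The alternatives tried were other pseudocounts, filters, call rules, scalings and variance models, the libraries of the comparison alone, a replicate block, voom on recovered reads, protein-coding genes alone and leaving out each library. The rule for genes that held, and a filter over 17 libraries, were chosen after seeing the data. Some members of the lists are not reported here. Intervals and floors from reads cover counting error only.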

Additional observations from a re-analysis of the deposited data

Results flagged for a closer look

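The early response differed between WT and *Usb1* knockout cells, by the interaction in the limma fit, in 36 of the 193 named genes tested. Of the 36, 23 were more positive and 13 more negative in WT cells. Over all 18555 genes tested, 205 (1.1%) were called. Some of the 36 were named for having the largest differences between genotypes, so their count partly restates that choice. The excess of positive differences over all genes depends on the scaling, as stated above. Among the 36, 6 kept their call under each alternative that tested them (*Inhbb*, *Nphs1*, *Rec8*, *Sertad4*, *Slc27a2* and *Tdh*), and the others lost it under at least 1. The values are on the TPM + 1 scale. For *Hoxb1*, *Stra6*, *Hoxa7* and *Olig3*, listed at 0 in both WT libraries at day 0, and for *Cyp26b1*, *Hoxa4*, *Neurog3*, *Sertad4*, *Crygc*, *Rasgrp3*, *Zfp703* and *Cbx8*, listed at 0 in 1 of them, they are fitted values that depend on the pseudocount and are no bound. With a pseudocount of 0.1 the difference of *Hoxa7* was 3.33 and that of *Cyp26b1* was 3.02, the latter no longer called. The difference of *Cyp26a1*, at a mean of 0.118 TPM in knockout cells at day 0, was −3.995 with that pseudocount. Among the retinoid, *Hox* and *Meis* genes, the difference (log2, WT minus knockout) was 2.04 for *Hoxb1*, 1.94 for *Crabp2*, 1.84 for *Stra6*, 1.53 for *Cyp26b1*, 1.26 for *Meis2*, 1.12 for *Hoxa4*, 1.01 for *Hoxa7* and −1.69 for *Cyp26a1*. The other positive differences were 2.84 for *Sumo2*, 2.67 for *Neurog3*, 2.32 for *Sertad4*, 2.29 for *Crygc*, 2.22 for *Rasgrp3*, 2.12 for *Olig3*, 1.83 for *Msx1*, 1.81 for *Slc35g2*, 1.505 for *Zfp703*, 1.501 for *Cbx8*, 1.495 for *Rec8*, 1.34 for *Fzd2*, 1.28 for *Sox11*, 1.27 for *Sox4*, 1.01 for *Id3* and 1.00 for *Pcgf1*. The other negative differences were −1.06 for *Notum*, −1.07 for *Etv4*, −1.21 for *Kirrel2*, −1.21 for *Foxd3*, −1.34 for *Tdh*, −1.48 for *Inhbb*, −1.60 for *Fgf17*, −1.74 for *Tcl1*, −1.74 for *Nphs1*, −1.77 for *Cited4*, −1.81 for *Slc27a2* and −2.34 for *AC170998.1*. In 3 further genes the groups at day 0 and day 1 did not overlap in either genotype, and the directions were opposite. The difference was 0.23 for *Lamb1*, −0.45 for *Rarg* and −0.54 for *Nanog*. The share of such genes over all genes tested was not counted, and in WT cells alone the groups did not overlap in 59.1%. None of these 3 reached a 2-fold difference, and the adjusted p of the difference (limma) was 0.24 for *Lamb1*, 0.032 for *Rarg* and 0.0127 for *Nanog*. The knockout libraries come from the single line KO-1, so the line and the knockout cannot be told apart.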

How the results depend on the processing

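The genes called at day 1 against day 0 in WT cells numbered 3035. They numbered 1907 with TPM of at least 5, 8319 by adjusted p alone and 5397 at 1.5-fold, and between 2454 and 4379 when each library was left out, the highest without WT replicate 2 at day 0. The genes called as different between genotypes numbered 205. They numbered 558 by adjusted p alone, 395 at 1.5-fold, 126 with the libraries of the comparison alone, and between 109 and 1746 when each library was left out. The highest of these came without WT replicate 2 at day 0, and the cause was not tested. With the replicate block, 2993 genes were called at day 1 and 155 as different between genotypes. Deviations of libraries with the same replicate number correlated at −0.0079 and −0.0052. With 2 libraries at day 0 the deviations mirror each other, so these values cannot settle whether the numbers pair the libraries. Under quantile normalization 2559 genes were called at day 1, and 172 as different. Of 140 named genes called at day 1, 127 kept their call under each alternative that tested them, and none of the 193 named genes tested reversed. Of 36 called differences of named genes, 6 kept their call under each alternative that tested them, 11 lost it with a pseudocount of 0.1, 9 after quantile normalization, 14 by voom and 16 without WT replicate 1 at day 0. Genes near 1 read per library could not be compared, and low values at day 0 rest mainly on replicate 2.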
